A study of Arabidopsis thaliana with 12 samples.

Results

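The genes described here are 34 nuclear genes of *Arabidopsis thaliana* that encode subunits of the chloroplast electron transport chain. The 34 were chosen by gene identifier from a list of known subunits and not by their values, though earlier results of these data were known. They comprise 12 genes of photosystem I, 10 of photosystem II, 4 of the plastid ATP synthase, and 2 each of cytochrome b6f, plastocyanin, ferredoxin-NADP reductase (FNR) and ferredoxin. All 34 were measured, among 22318 genes of a first fit and 22400 genes of a second. The RNA came from 5-day-old Columbia-0 (Col-0) seedlings grown on agar without sugar, with 12 libraries in all, 2 biological replicates in each of 6 groups and about 12 seedlings in a library. The first fit holds *det1-1* in light, *det1-1* in darkness, WT in light and WT in darkness. The second holds *det1-1ubp22-1*, *ubp22-1*, *det1-1* and WT, all in light, and uses the light-grown *det1-1* and WT libraries of the first again. Light (L) means 16 h of light at 100 µmol m-2 s-1 and 8 h of darkness a day, and darkness (D) means that the seedlings saw no light. DET1 is a nuclear repressor of light responses in dark-grown seedlings, *det1-1* is a partial loss-of-function allele of it, and *ubp22-1* carries a DNA insertion in *UBP22*, the gene of a histone H2B deubiquitinase.

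Photosynthetic electron transport moves electrons taken from water by photosystem II through cytochrome b6f and the copper protein plastocyanin to photosystem I, and from there through ferredoxin and FNR to NADP, while the ATP synthase uses the proton gradient that builds up. The core of each complex is encoded in the plastid, and the subunits described here are made in the cytosol from nuclear genes and imported. In flowering plants these nuclear genes are known for low transcript levels in etiolated seedlings and higher levels in green ones.

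The deposited tables give for each gene a mean normalized count over the 8 libraries of a fit and log2 fold changes with standard errors (SE) from DESeq2, but no value per library. Group means were therefore recovered from the fold changes, each the mean of 2 libraries, and the overlap of single libraries between groups could not be examined. A gene was called higher or lower if it differed more than 2-fold with an adjusted p below 0.01, from a two-sided Wald test of each deposited value against its SE, adjusted by Benjamini-Hochberg over all genes of the fit, and "rose" and "fell" are used of called genes only. The normalized counts of a group summed to between 24190350 and 32505172 over all genes in the first fit. *DET1* (AT4G10180) averaged 1107 normalized counts in *det1-1* (L), 1758 in *det1-1* (D), 1241 in WT (L) and 909 in WT (D), which does not check the labels because the allele need not lower the transcript. *UBP22* (AT5G10790) had mean normalized counts of 4018 in *det1-1ubp22-1* (L) and 8345 in *ubp22-1* (L), against 436 in *det1-1* (L) and 414 in WT (L). The counts thus set the libraries labelled with the insertion apart by a higher, not a lower, count, and cannot show whether those transcripts are complete.

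Together the 34 genes took 4.91% of all normalized counts in *det1-1* (L), 3.29% in *det1-1* (D), 5.40% in WT (L) and 0.872% in WT (D). Photosystem II genes held the largest part, with summed mean counts of 674839 in *det1-1* (L), 502991 in *det1-1* (D), 613161 in WT (L) and 94537 in WT (D). Photosystem I genes, 12 in number, summed to 377836 in *det1-1* (L), 278617 in *det1-1* (D), 469359 in WT (L) and 65696 in WT (D). Per kilobase of annotated transcript, the highest level in WT (L) was that of *PSBR*, a small subunit of photosystem II, at 102250 normalized counts per kilobase, followed by *PSBO1*, the main gene of the protein that stabilises the manganese cluster, at 92612. The lowest were *ATPC2*, a second gene of the ATP synthase gamma subunit, at 109, and *PETE1*, the minor plastocyanin gene, at 3799. Of the 34 genes, 10 overlap an annotated gene on the opposite strand, and since the counting command is given with no strand option their reads cannot be told apart from those of the other gene; these are *PSAE1*, *PSAE2*, *PSAG*, *PSAH1*, *PSAH2*, *PSAN*, *PSBP1*, *PSBR*, *ATPC2* and *FNR1*. In bulk seedlings fewer cells of a type and less RNA per cell cannot be told apart.

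**Figure D1:**
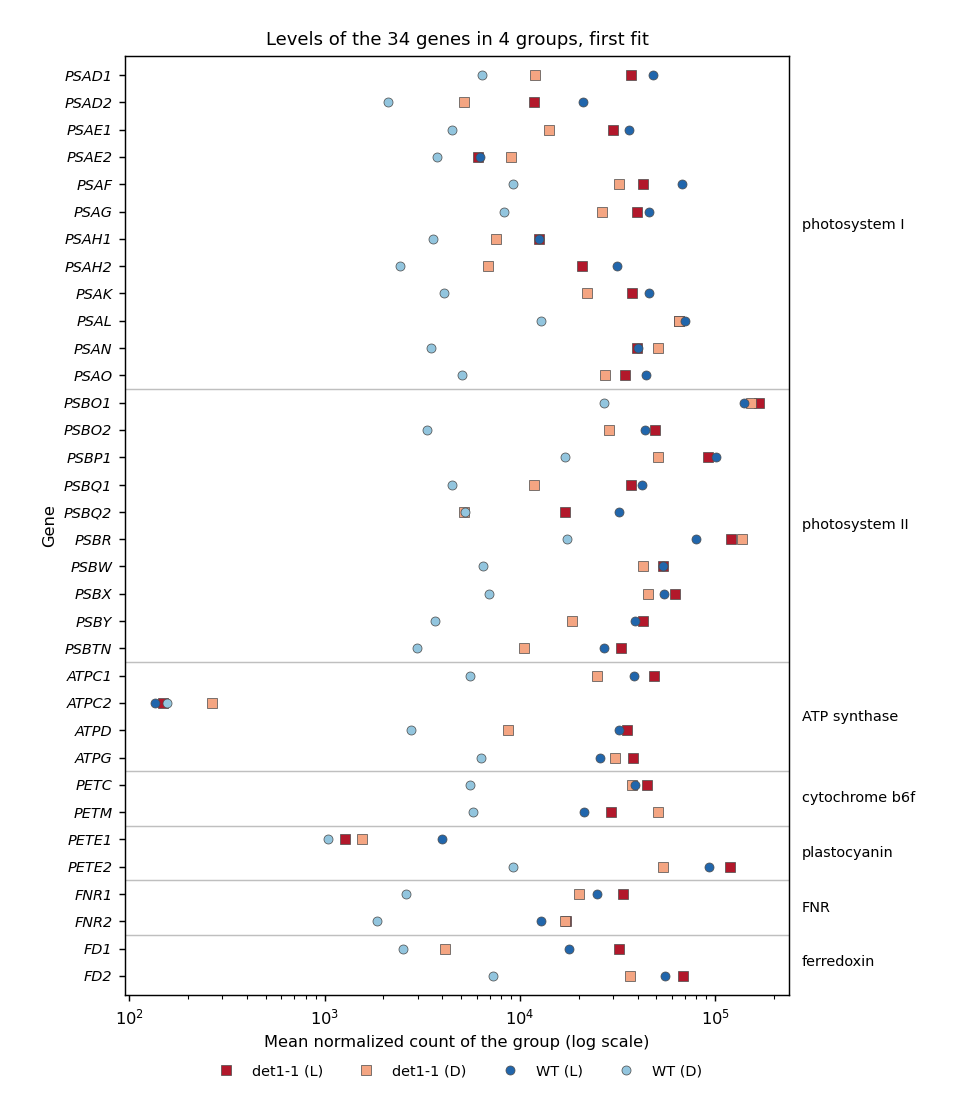
Mean normalized count of each of the 34 genes in the 4 groups of the first fit, on a log scale, with *det1-1* as squares and WT as circles and light in the darker colour. WT (D) is the lowest group for 32 genes, while *PSBQ2* is lowest in *det1-1* (D), at 5166 against 5225 in WT (D), and *ATPC2* is lowest in WT (L), at 136 against 157 in WT (D).

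Light against darkness in WT asks how far these genes follow the greening of the seedling. Of the 34 genes, 32 rose and none fell in WT (L) relative to WT (D), where 20.9% of all genes tested rose. The median log2 fold change of the 34 was 2.89, against 0.02 over all genes. All 10 photosystem II genes rose, as did 11 of 12 photosystem I genes, 3 of 4 ATP synthase genes and both genes each of cytochrome b6f, plastocyanin, FNR and ferredoxin. The rises ran between log2 values of 1.81 and 3.71, with SE of 0.13 to 0.20 for the genes called.

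The 3 largest rises belonged to 3 different complexes. *PSBO2* (AT3G50820), the second gene for the manganese-stabilising protein of photosystem II, averaged 43749 normalized counts in WT (L) and 3333 in WT (D), a log2 fold change of 3.71 (SE 0.17, adjusted p = 3.0e-107 from the Wald test). *PSAH2* (AT1G52230), a photosystem I subunit at the docking side for mobile antenna, had 31478 in WT (L) and 2433 in WT (D), a log2 fold change of 3.69 (SE 0.17). *ATPD* (AT4G09650), the delta subunit that joins the 2 parts of the ATP synthase, had 32274 in WT (L) and 2771 in WT (D), a log2 fold change of 3.54 (SE 0.20).

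The smallest values were those of genes with another copy for the same subunit. *PSAE2* (AT2G20260), one of 2 genes for a stromal photosystem I subunit that helps bind ferredoxin, averaged 6282 normalized counts in WT (L) and 3775 in WT (D), a log2 fold change of 0.73 (SE 0.16) that passed the adjusted p but not the 2-fold threshold. *ATPC2* (AT1G15700) had 136 in WT (L) and 157 in WT (D), a log2 fold change of -0.21 (SE 0.27, adjusted p = 0.52 from the Wald test). *PSAH1* (AT3G16140) rose least among the genes called, with 12557 in WT (L) and 3571 in WT (D) and a log2 fold change of 1.81 (SE 0.18).

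Dark-grown *det1-1* seedlings were compared with dark-grown WT to see which of these genes *det1-1* raises without light. Of the 34 genes, 29 rose and none fell in *det1-1* (D), where 14.4% of all genes tested rose. The median log2 fold change was 2.22, against -0.0048 over all genes. Of the genes called higher here, 28 were also called higher in WT (L) over WT (D). With 29 and 32 of the 34 called, nearly all of this overlap was bound to occur. The 2 comparisons also share the WT (D) libraries, so the overlap is given as a count only. It was not counted over all genes. Scaling the libraries to their total count, which is 0.43 higher on the log2 scale in *det1-1* (D) than in WT (D), left 25 genes called, and *PSAD2*, *PSAE2*, *PSAH1* and *PSBQ1* were no longer among them.

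*PSAN* (AT5G64040), a lumenal photosystem I subunit involved in the docking of plastocyanin, rose most; the gene spans bases 25628521 to 25629708 of chromosome 5 (TAIR10.1), minus strand. Its mean normalized count was 50638 in *det1-1* (D) and 3496 in WT (D), a log2 fold change of 3.86 (SE 0.15, adjusted p = 1.5e-151 from the Wald test). *FNR2* (AT1G20020), one of 2 leaf FNR genes, had 16965 in *det1-1* (D) and 1867 in WT (D), a log2 fold change of 3.18 (SE 0.19). *PETM* (AT2G26500), a small subunit of cytochrome b6f, had 51181 in *det1-1* (D) and 5742 in WT (D), a log2 fold change of 3.16 (SE 0.15). By complex, the medians were 3.06 for FNR, 2.96 for cytochrome b6f, 2.41 for photosystem II, 1.90 for the ATP synthase, 1.66 for photosystem I, 1.56 for plastocyanin and 1.53 for ferredoxin.

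The 5 genes not called in *det1-1* (D) fell into 2 kinds. *PSBQ2* (AT4G05180), a second gene for an extrinsic protein of the oxygen-evolving side, spans bases 2671523 to 2673243 of chromosome 4 (TAIR10.1), is read from the minus strand and has 4 exons. It had mean normalized counts of 5166 in *det1-1* (D) and 5225 in WT (D), a log2 fold change of -0.02 (SE 0.14, 95% interval -0.29 to 0.26). *PSBQ2* was the only gene of the 34 besides *ATPC2* whose mean in *det1-1* (D) or WT (L) did not exceed that in WT (D). *ATPC2* had 265 in *det1-1* (D) and 157 in WT (D), a log2 fold change of 0.76 (SE 0.26). The other 3 passed the adjusted p below the 2-fold threshold. *PETE1* (AT1G76100), a gene of 1 exon at bases 28553883 to 28554930 of chromosome 1, minus strand, had 1549 in *det1-1* (D) and 1042 in WT (D), a log2 fold change of 0.57 (SE 0.15). *FD1* (AT1G10960), the minor leaf ferredoxin gene with 1 exon at bases 3664187 to 3665040 of chromosome 1, plus strand, had 4151 in *det1-1* (D) and 2519 in WT (D), a log2 fold change of 0.72 (SE 0.18). *PSAD1* (AT4G02770), a stromal photosystem I subunit that forms the ferredoxin docking site, had 12014 in *det1-1* (D) and 6410 in WT (D), a log2 fold change of 0.91 (SE 0.14).

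**Figure D2:**
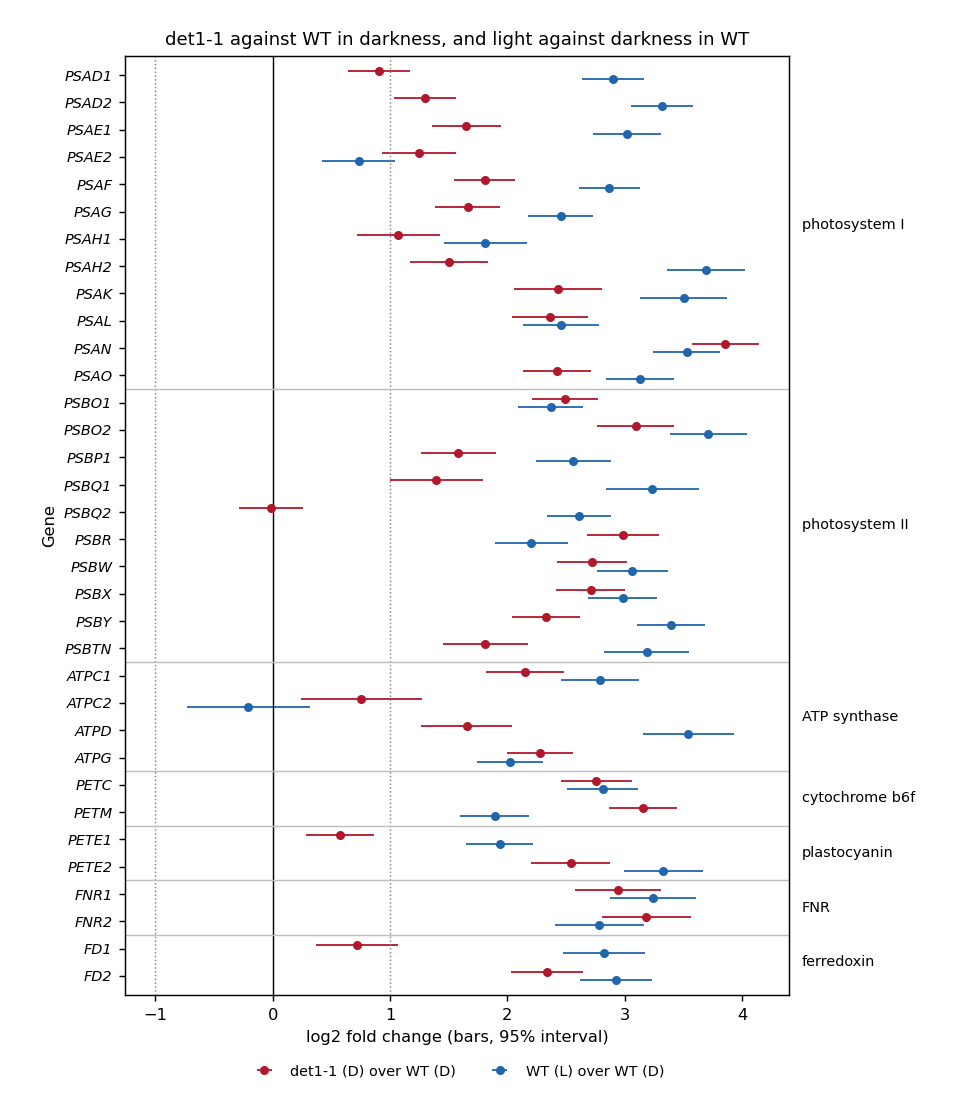
Log2 fold changes of the 34 genes in *det1-1* (D) over WT (D) and in WT (L) over WT (D), with 95% intervals as bars and dotted lines at a 2-fold change. *PSAN*, *PETM* and *PSBR* lie further right for *det1-1* (D) than for light in WT, while *PSBQ2*, *FD1*, *PETE1* and *PSAD1* lie near or below the 2-fold line for *det1-1* (D) and well past it for light.

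The interaction of *det1-1* and light, the log2 effect of *det1-1* in dark-grown seedlings less its effect in light-grown ones, was above 0 and past the threshold for 31 of the 34 genes, where 8.91% of all genes tested were. Its median was 2.16, with the largest value for *PSAN* at 3.88 (SE 0.21). The 3 genes not called were *PSBQ2* at 0.89 (SE 0.20), *ATPC2* at 0.62 (SE 0.38) and *FD1* at -0.13 (SE 0.25, adjusted p = 0.78 from the Wald test). For *FD1* the 95% interval ran from -0.62 to 0.36.

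Light against darkness within *det1-1* was the next comparison. In *det1-1* (L) over *det1-1* (D), 11 of 34 genes rose and none fell, where 15.7% of all genes tested rose, and the median log2 fold change was 0.74. The 11 were *PSAD1*, *PSAD2*, *PSAE1* and *PSAH2* of photosystem I, *PSBQ1*, *PSBQ2*, *PSBY* and *PSBTN* of photosystem II, *ATPD*, *PETE2* and *FD1*. *FD1* stood furthest out, averaging 32140 normalized counts in *det1-1* (L) and 4151 in *det1-1* (D), a log2 fold change of 2.95 (SE 0.18, adjusted p = 5.0e-60 from the Wald test). In WT the gene had 17841 in WT (L) and 2519 in WT (D), a log2 fold change of 2.82 (SE 0.18). *ATPD* followed with 35284 in *det1-1* (L) and 8718 in *det1-1* (D), a log2 fold change of 2.02 (SE 0.20). *PETM*, at 29265 in *det1-1* (L) and 51181 in *det1-1* (D), had a log2 fold change of -0.81 (SE 0.15), which passed the adjusted p and not the 2-fold threshold.

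Dark-grown *det1-1* was also set against light-grown WT, to see how near its transcript levels came to those of green seedlings. In *det1-1* (D) over WT (L), 13 genes fell and 1 rose, where 12.2% of all genes tested fell and 11.4% rose, and the median log2 fold change was -0.72. *PETM* was the gene that rose, with 51181 in *det1-1* (D) and 21329 in WT (L), a log2 fold change of 1.26 (SE 0.21); scaled to the total count it no longer passed. The 13 that fell were *PSAD1*, *PSAD2*, *PSAE1*, *PSAF*, *PSAH2*, *PSAK*, *PSBQ1*, *PSBQ2*, *PSBY*, *PSBTN*, *ATPD*, *PETE1* and *FD1*. The lowest values were those of *PSBQ2* at -2.63 (SE 0.20), *PSAH2* at -2.19 (SE 0.24) and *FD1* at -2.10 (SE 0.25). Other genes of the same complexes lay near 0, such as *PSAL* at -0.09 (SE 0.23), *PSBO1* at 0.12 (SE 0.20) and the Rieske protein gene *PETC* at -0.05 (SE 0.22). Of the 14, 5 kept the call when tested for a change beyond 2-fold.

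**Figure D3:**
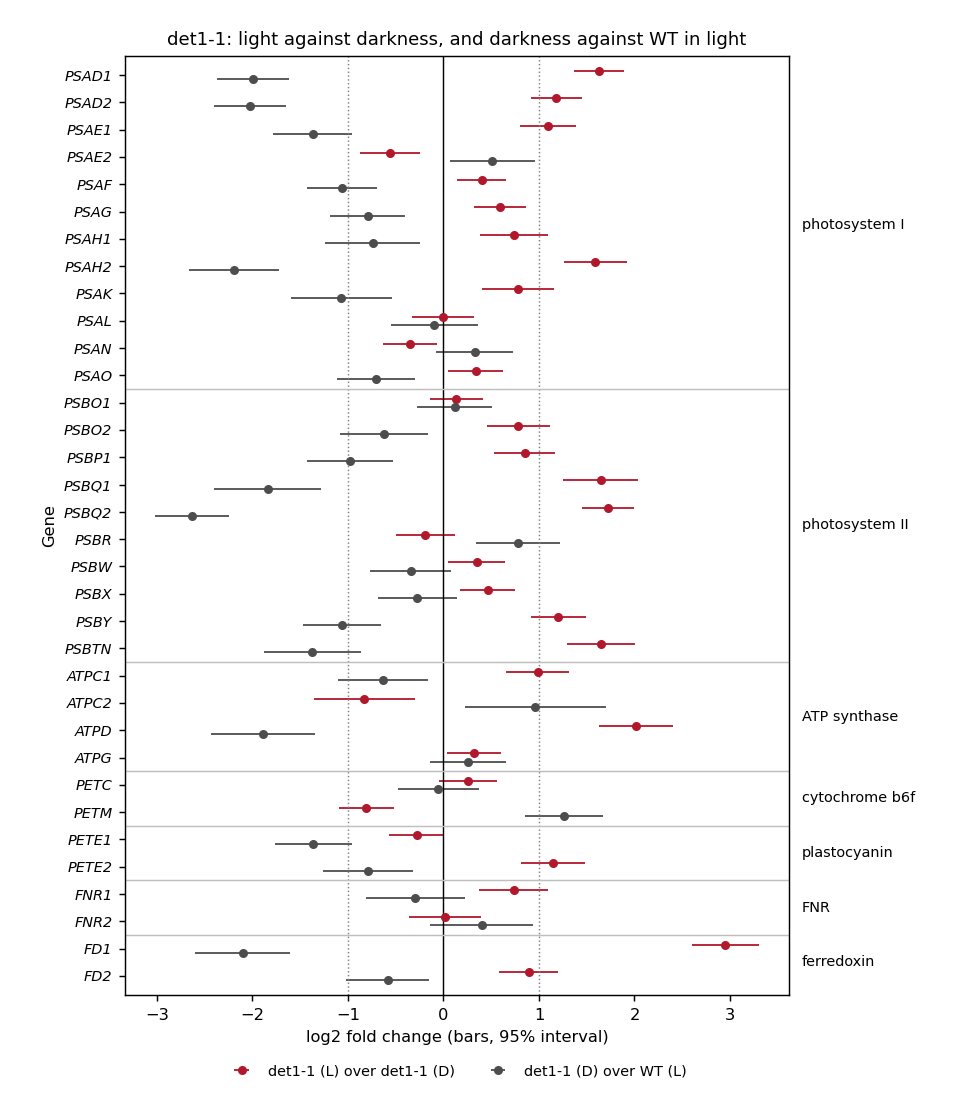
Log2 fold changes of the 34 genes in *det1-1* (L) over *det1-1* (D) and in *det1-1* (D) over WT (L), with 95% intervals as bars and dotted lines at a 2-fold change. Both comparisons contain the *det1-1* (D) libraries, so a gene low in that group moves right in one and left in the other, as *FD1*, *PSBQ2*, *PSAH2* and *ATPD* do.

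The bases before each gene start were read from the TAIR10.1 genome with the RefSeq annotation. The G-box, CACGTG, is a palindrome recognised by bZIP and bHLH factors of light signalling, and it was found within 250 bases upstream of 6 of the 34 genes (17.6%), against 6.49% of all 27443 protein-coding genes. These were *PSAE2*, *PSAH2*, *PSBQ1*, *PSBQ2*, *PSBTN* and *ATPD*. The median log2 fold change of these 6 in *det1-1* (D) over WT (L) was -1.86, with 5 called lower, against -0.63 for the 28 others, with 8 called lower. *PSAE2*, at 0.51 (SE 0.22), had the letters too and lay above 0. Without a G-box, *PSAD1* at -2.00, *PSAD2* at -2.02 and *FD1* at -2.10 lay below *PSBQ1*, which was at -1.84. In WT (L) over WT (D) the medians of the same 2 sets were 3.21 and 2.85. In *det1-1* (D) over WT (D) they were 1.45 and 2.35, with 5 of the 6 and 24 of the 28 called higher. The I-box, GATAAG on either strand, was found before 9 of the 34 genes (26.5%) and 12.3% of all, and CCAATC on either strand before 4 (11.8%) and 10.2% of all. A match is a description of the letters and was not tested for function. After their values were seen, 3 genes with the G-box were picked that were called lower in *det1-1* (D) than in WT (L). Of these, *PSBQ1* and *PSBTN* rose in *det1-1* (D) over WT (D). *PETM* was picked for contrast, as it was higher in *det1-1* (D) than in WT (L) and has none of the 3 motifs within 250 bases. Shown are the 150 bases before the start of each. Each stretch is written 5′ to 3′ on the strand of the gene and ends at the base before the gene start. Capitals mark the motifs on either strand. They lie at chr4:11334202-11334351 on the plus strand for *PSBQ1*, chr4:2673244-2673393 on the minus strand for *PSBQ2*, chr3:7377227-7377376 on the minus strand for *PSBTN* and chr2:11269932-11270081 on the plus strand for *PETM*.
PSBQ1: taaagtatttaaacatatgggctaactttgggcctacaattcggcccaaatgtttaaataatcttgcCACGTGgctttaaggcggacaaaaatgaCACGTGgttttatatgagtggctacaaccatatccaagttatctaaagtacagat
PSBQ2: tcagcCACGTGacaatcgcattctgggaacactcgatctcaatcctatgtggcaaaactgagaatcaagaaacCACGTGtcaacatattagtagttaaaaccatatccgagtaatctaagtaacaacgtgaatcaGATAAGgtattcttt
PSBTN: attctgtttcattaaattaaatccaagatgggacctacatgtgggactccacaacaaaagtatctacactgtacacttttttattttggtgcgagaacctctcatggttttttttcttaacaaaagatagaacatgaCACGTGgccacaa
PETM: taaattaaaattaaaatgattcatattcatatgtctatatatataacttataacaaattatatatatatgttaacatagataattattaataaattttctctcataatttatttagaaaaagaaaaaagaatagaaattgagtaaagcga
*PSBQ1* and *PSBQ2* each carry 2 G-boxes in these bases, at -83 and -55 and at -145 and -77 from the gene start, while *PSBTN* carries 1 at -13. The capitals GATAAG of *PSBQ2* are an I-box at -15.

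Light-grown *det1-1* was compared with light-grown WT. In *det1-1* (L) over WT (L), 1 of 34 genes fell and none rose, where 1.01% of all genes tested fell, and the median log2 fold change was 0.07. The gene that fell was *PETE1*, averaging 1276 normalized counts in *det1-1* (L) and 3982 in WT (L), a log2 fold change of -1.64 (SE 0.15, adjusted p = 2.2e-26 from the Wald test). *PETE2* (AT1G20340), the major plastocyanin gene, had 119240 in *det1-1* (L) and 93253 in WT (L), a log2 fold change of 0.35 (SE 0.17). The 2 plastocyanin genes thus differed in their log2 fold change by -2.00 (95% interval -2.44 to -1.56). The second fit, which uses the same *det1-1* (L) and WT (L) libraries and so is no replication, also called *PETE1* lower, at -1.65 (SE 0.15).

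Below the 2-fold threshold the values lay apart by complex. All 12 photosystem I genes had a log2 fold change below 0 in *det1-1* (L) over WT (L), between -0.84 and -0.0029 with a median of -0.28, while all 4 ATP synthase genes and both genes each of cytochrome b6f, FNR and ferredoxin lay above 0, with medians of 0.24, 0.33, 0.43 and 0.58. An unadjusted p under 0.05 was reached by 16 of the 34 genes and by 5253 of all 22318 genes tested. The 16 included 5 of the 12 photosystem I genes, 2 of the 10 photosystem II genes and 2 of the 4 ATP synthase genes. The others were 1 of the 2 cytochrome b6f genes and both genes each of plastocyanin, FNR and ferredoxin. At an adjusted p under 0.01 with no threshold on size, 5 of the 34 genes were lower and 3 higher, where 1.98% and 5.61% of all genes tested were. The 5 were *PETE1*, *PSBQ2* at -0.91 (SE 0.14), *PSAD2* at -0.84 (SE 0.13), *PSAF* at -0.66 (SE 0.13) and *PSAH2* at -0.60 (SE 0.17). The 3 were *FD1* at 0.85 (SE 0.18), *PSBR* at 0.59 (SE 0.16) and *ATPG* (AT4G32260, a membrane subunit of the ATP synthase) at 0.57 (SE 0.14). The total count was 0.21 higher on the log2 scale in *det1-1* (L) than in WT (L), and with scaling to it all 12 photosystem I genes stayed below 0 and *PSAD2* and *PSBQ2* passed the 2-fold threshold, while 2 of 4 ATP synthase genes and 1 of 2 cytochrome b6f genes turned below 0.

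Photosystem I genes summed to 377836 normalized counts in *det1-1* (L) and 469359 in WT (L), and photosystem II genes to 674839 in *det1-1* (L) and 613161 in WT (L). As shares of all normalized counts, photosystem I was 1.22% in *det1-1* (L) and 1.75% in WT (L), and photosystem II 2.18% in *det1-1* (L) and 2.29% in WT (L), so that for photosystem II the sum was higher and the share lower in *det1-1* (L). Among photosystem II genes, 7 of 10 were above 0 with a median of 0.15, and scaled to the total count 3 of 10 were, with a median of -0.06. *PSAF* (AT1G31330), whose lumenal side binds plastocyanin, averaged 42573 normalized counts in *det1-1* (L) and 67396 in WT (L). *PSBR* had 120692 in *det1-1* (L) and 80164 in WT (L).

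The second fit asked whether these genes differ with the *ubp22-1* insertion in light. In *ubp22-1* (L) over WT (L), 0 of 34 genes were called, where 0.116% of all genes tested were. An unadjusted p under 0.05 was reached by 1 of the 34, *PSBTN* at 0.53 (SE 0.14), and by 783 of all 22400 genes tested. The log2 fold changes of the other 33 lay between -0.06 and 0.24, with a median of 0.10 over the 34. Of the 34, 32 lay above 0, among them all 12 photosystem I and all 10 photosystem II genes, though none was called. *PSBTN* had mean normalized counts of 41811 in *ubp22-1* (L) and 28924 in WT (L), and its adjusted p was 0.07 in the Wald test.

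In *det1-1ubp22-1* (L) over WT (L), *PETE1* fell and no other of the 34 genes was called, where 0.848% of all genes tested fell. *PETE1* had mean normalized counts of 1645 in *det1-1ubp22-1* (L) and 4861 in WT (L), a log2 fold change of -1.56 (SE 0.15, adjusted p = 3.5e-24 from the Wald test). It lost the call when tested for a change beyond 2-fold. All 12 photosystem I genes were again below 0, with a median of -0.30; this comparison shares the WT (L) libraries with that of *det1-1* (L). In *det1-1ubp22-1* (L) over *det1-1* (L), 0 of 34 genes were called, where 0.0179% of all genes tested were. An unadjusted p under 0.05 was reached by 0 of the 34 and by 373 of all 22400 genes tested. The values ran between -0.24 and 0.22 with SE of 0.14 to 0.35.

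**Figure D4:**
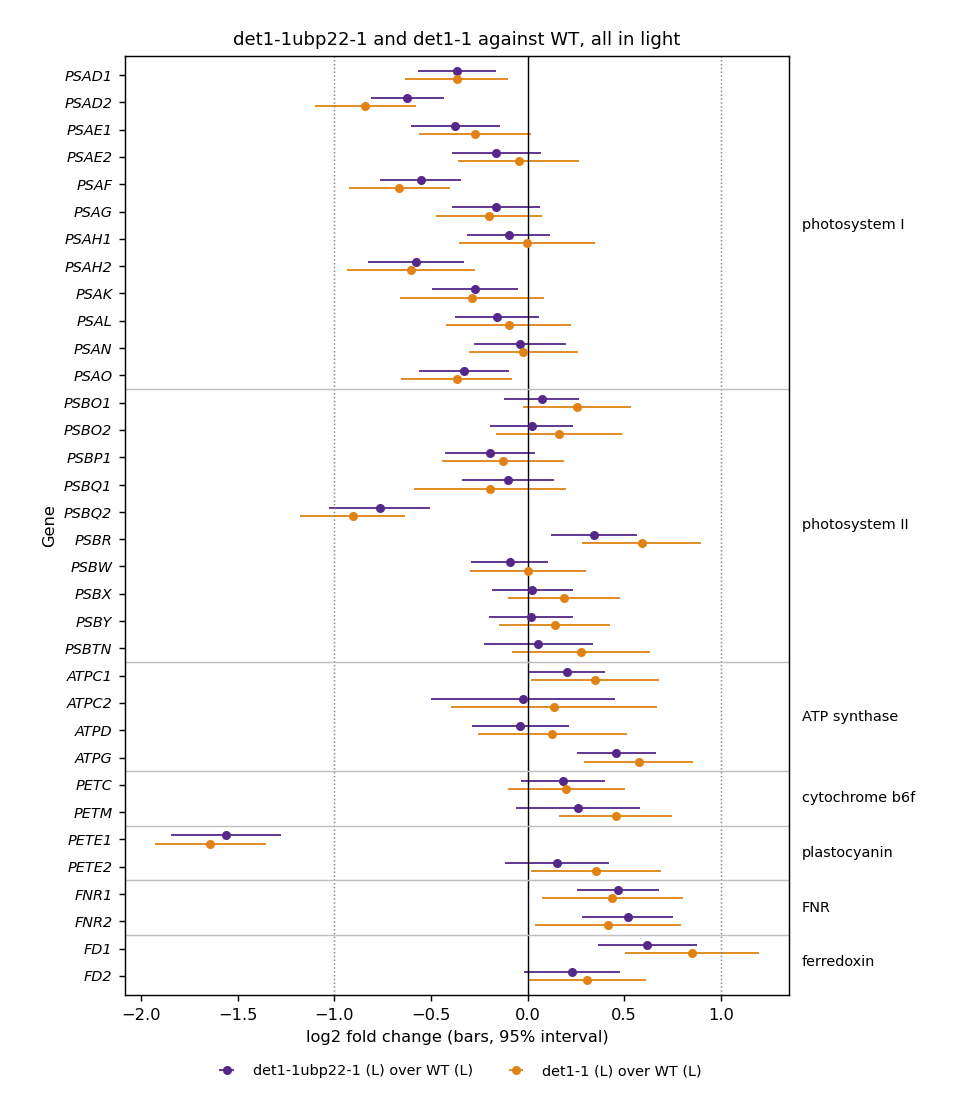
Log2 fold changes of the 34 genes in *det1-1ubp22-1* (L) over WT (L) from the second fit and in *det1-1* (L) over WT (L) from the first, with 95% intervals as bars and dotted lines at a 2-fold change. *PETE1* is the only gene past the 2-fold line in either, all 12 photosystem I genes lie left of 0 in both, and both comparisons use the same WT (L) libraries.

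For 9 subunits 2 genes each were among the 34, so that the share of each copy in the transcripts of its subunit could be followed. The coding sequences of the copies were between 67.9% and 88.0% identical, and no stretch of 50 bases of any of the 34 transcripts, the length of a read, occurred elsewhere in the nuclear genome without a mismatch. The 2 copies differed in their log2 fold change, by a 95% interval that left out 0, in 7 of 9 pairs in WT (L) over WT (D), in 8 in *det1-1* (L) over *det1-1* (D), in 6 in *det1-1* (D) over WT (D), in 5 in *det1-1* (L) over WT (L) and in none in *ubp22-1* (L) over WT (L). These intervals take the 2 genes as independent.

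In 6 of the 9 pairs the share of the same copy was higher in light than in darkness in both genotypes, as a description of group means; these were PSAE, PSAH, PSBO, plastocyanin, FNR and the ATP synthase gamma subunit. *PSAE1*, the other gene of its subunit, made up 79.0% of the pair per kilobase of transcript in *det1-1* (L) and 54.4% in *det1-1* (D), against 81.5% in WT (L) and 47.4% in WT (D). In WT (L) over WT (D) its log2 fold change exceeded that of *PSAE2* by 2.29 (95% interval 1.86 to 2.71). *PSAH2* made up 75.4% of its pair in *det1-1* (L) and 62.9% in *det1-1* (D), against 82.3% in WT (L) and 55.8% in WT (D). In WT (L) over WT (D) *PSAH1* lay below *PSAH2* in log2 fold change, by -1.88 (95% interval -2.364 to -1.395). *PSBO2* made up 25.04% of its pair in *det1-1* (L) and 17.6% in *det1-1* (D), against 26.3% in WT (L) and 12.3% in WT (D).

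In other pairs the copies parted with *det1-1*. *PSBQ1* (AT4G21280) made up 73.4% of its pair in *det1-1* (L) and 74.5% in *det1-1* (D), against 62.8% in WT (L) and 52.3% in WT (D). In *det1-1* (D) over WT (D) its log2 fold change was 1.395 (SE 0.20), above that of *PSBQ2* by 1.41 (95% interval 0.93 to 1.89). Both copies rose in *det1-1* (L) over *det1-1* (D), with a difference of -0.08 (95% interval -0.56 to 0.40) between them. *PETE1* made up 1.36% of its pair in *det1-1* (L) and 3.56% in *det1-1* (D), against 5.20% in WT (L) and 12.6% in WT (D). *PETE2* was thus nearly all of the plastocyanin transcript in *det1-1*, and its log2 fold change exceeded that of *PETE1* in both dark-grown and light-grown *det1-1*, with differences of -1.97 (95% interval -2.41 to -1.53) and -2.00 for *PETE1* minus *PETE2*. Their interaction values, 2.21 (SE 0.21) for *PETE1* and 2.19 (SE 0.24) for *PETE2*, differed by 0.03 (95% interval -0.60 to 0.65).

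The ferredoxin genes parted in dark-grown *det1-1*. *FD1* made up 35.3% of its pair in *det1-1* (L) and 11.5% in *det1-1* (D), against 27.2% in WT (L) and 28.6% in WT (D). *FD2* (AT1G60950), the major leaf ferredoxin gene, averaged 68051 normalized counts in *det1-1* (L), 36701 in *det1-1* (D), 54989 in WT (L) and 7250 in WT (D). In *det1-1* (D) over WT (D) its log2 fold change was 2.34 (SE 0.16), and *FD1* lay below it by a difference of -1.62 (95% interval -2.08 to -1.15). In WT (L) over WT (D) the difference was -0.10 (95% interval -0.56 to 0.36). The interaction differed between the copies by -2.16 (95% interval -2.82 to -1.51).

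The remaining pairs were those of PSAD, FNR and the ATP synthase gamma subunit. *PSAD1* made up 72.7% of its pair in *det1-1* (L) and 66.1% in *det1-1* (D), against 65.7% in WT (L) and 71.9% in WT (D), and *PSAD2* (AT1G03130) had the larger rise in WT (L), by a difference of -0.42 (95% interval -0.79 to -0.04) for *PSAD1* minus *PSAD2*. *FNR1* (AT5G66190) made up 66.9% of the FNR pair in *det1-1* (L) and 55.1% in *det1-1* (D), against 66.6% in WT (L) and 59.2% in WT (D). *FNR1* and *FNR2* differed only in *det1-1* (L) over *det1-1* (D), among the 9 comparisons made, by 0.72 (95% interval 0.19 to 1.24). *ATPC1* (AT4G04640), the gamma subunit of the ATP synthase in leaves, was at least 96.7% of its pair in every group of the first fit, and it rose in WT (L) by a log2 fold change of 2.79 (SE 0.17).

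**Figure D5:**
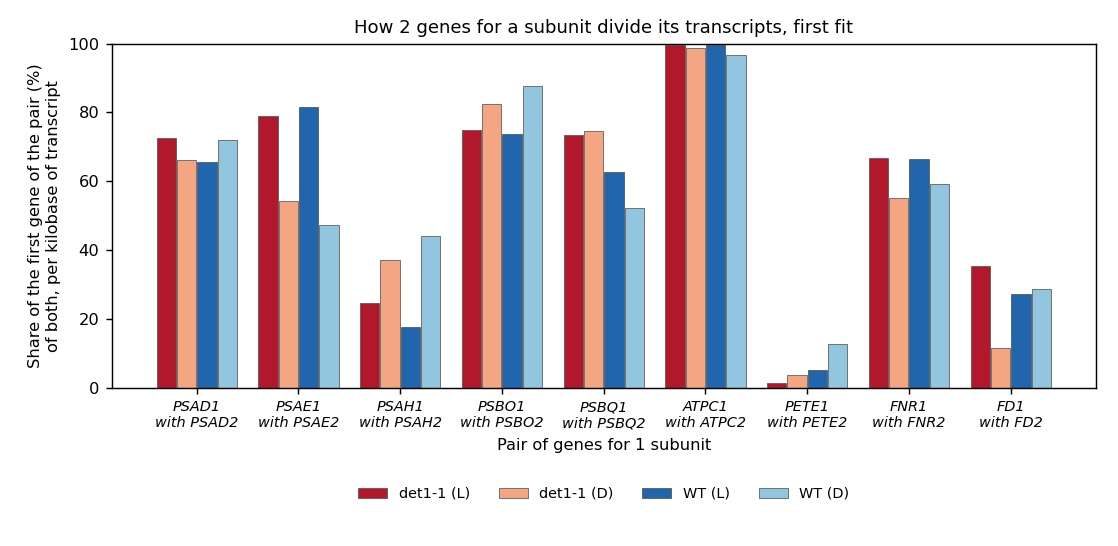
Share of the first-named gene in the transcripts of its pair, in percent of the sum of both per kilobase of annotated transcript, in the 4 groups of the first fit. The *FD1* share is lowest in *det1-1* (D) at 11.5%, the *PETE1* share is lower in both *det1-1* groups than in WT, and the *PSAE1* share is higher in both light-grown groups than in the dark-grown ones.

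A second list held other nuclear genes of electron transport. Of 32 such genes, for subunits of the NADH dehydrogenase-like (NDH) complex, cyclic flow, kinases, assembly factors and FNR anchors, 24 rose and none fell in WT (L) over WT (D), with a median of 2.45. Of all genes tested, 20.9% rose there. In *det1-1* (D) over WT (D) 18 rose and 2 fell, with a median of 1.402, where 3217 of all 22318 genes tested rose and 2360 fell. In *det1-1* (L) over WT (L) none was called, with a median of 0.27. There 13 of the 32 had an unadjusted p under 0.05, against 5253 of all 22318 genes tested. The difference between these 32 genes and the 34 above was not tested. *NDHU* (AT5G21430), an NDH subunit of the ferredoxin-binding part, had log2 fold changes of 3.88 (SE 0.21) in *det1-1* (D) over WT (D) and 3.84 (SE 0.21) in WT (L) over WT (D). *PSB28*, a photosystem II assembly factor, had 3.14 (SE 0.24) and 3.84 (SE 0.24), *STN7*, the kinase of state transitions, 3.38 (SE 0.19) and 2.97 (SE 0.19), and *PNSB1*, an NDH subunit, 3.15 (SE 0.19) and 3.69 (SE 0.19) in the same 2 comparisons. *PNSL3*, also of the NDH complex, had 1.49 (SE 0.24) in *det1-1* (D) over WT (D) and 3.82 (SE 0.24) in WT (L) over WT (D). *CURT1A*, which bends thylakoid membranes, was the most abundant gene not called in *det1-1* (D), at 0.79 (SE 0.21), and rose in WT (L) by 2.70 (SE 0.21). The 2 genes that fell in *det1-1* (D) were those of the root-type FNR, *RFNR1* at -1.36 (SE 0.20) and *RFNR2* at -1.06 (SE 0.17), opposite in sign to the leaf genes *FNR1* and *FNR2*. Of the genes not called in either comparison, *TAP38*, the phosphatase that opposes *STN7*, had mean normalized counts of 5140 in *det1-1* (D), 2082 in WT (L) and 2811 in WT (D), and *NDHO* had 3339 in *det1-1* (D), 2726 in WT (L) and 2187 in WT (D).

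Antenna and carbon-fixing genes, the closest sets by function, were counted in the same way. Of 21 antenna genes 21 rose in WT (L) over WT (D), where 20.9% of all genes did, and 17 rose in *det1-1* (D) over WT (D), where 14.4% did. Of 16 Calvin cycle and Rubisco genes 16 rose in WT (L) over WT (D), and in *det1-1* (D) over WT (D) 15 rose and 1 fell, *RBCS2B* at -2.08 (SE 0.24), a gene whose close copies may share reads. Of all 22318 genes tested, 2360 fell in *det1-1* (D) over WT (D). In *det1-1* (L) over WT (L), where 1 of the 34 electron transport genes was called, 5 antenna genes fell and 1 rose, and no carbon-fixing gene was called. Of all 22318 genes tested, 225 fell and 492 rose in that comparison. There 12 of the 16 carbon-fixing genes had an unadjusted p under 0.05, against 5253 of all 22318 genes tested. The medians in that comparison were -0.50 for the antenna and 0.52 for the carbon-fixing genes, beside 0.07 for the 34.

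Markers of other tissues moved between some groups. The 3 mesophyll markers, *RBCS1A*, *BCA1* and *CAB3*, are themselves photosynthesis genes. They summed to 1576196 normalized counts in *det1-1* (L), 763325 in *det1-1* (D), 964155 in WT (L) and 95451 in WT (D). *RBCS1A* alone had 1307718 in *det1-1* (L) and 696185 in WT (L). All 3 rose in WT (L) over WT (D) and in *det1-1* (D) over WT (D). In *det1-1* (L) over WT (L) none rose and 1 fell, *CAB3*, with 30649 in *det1-1* (L) and 98319 in WT (L). The 2 epidermis markers summed to between 11109 and 15915 in the 4 groups and the phloem marker *SUC2* to between 3671 and 5145, with none called between groups of the first fit. The 6 root markers summed to 3181 in *det1-1* (L), 2435 in *det1-1* (D), 3363 in WT (L) and 10783 in WT (D), but moved in opposite directions. In WT (L) over WT (D) 3 were higher and 2 lower, where 4674 of all 22318 genes tested were higher and 3477 lower. *COBL9*, *EXPA7* and *EXPA18* had 341, 358 and 335 in WT (L) and 3.21, 1.59 and 0.793 in WT (D). *CASP1* and *CASP5* had 541 and 96.2 in WT (L) and 3322 and 6105 in WT (D). In *det1-1* (D) over WT (D) 1 was higher and 2 lower, where 3217 of all 22318 genes tested were higher and 2360 lower. The 7 seed storage genes summed to 7037 in *det1-1* (L) and 22.3 in WT (L). In that comparison 5 of them rose, where 492 of all 22318 genes tested rose. In the second fit they summed to 72.9 in *det1-1ubp22-1* (L), 3060 in *ubp22-1* (L), 6025 in *det1-1* (L) and 19.2 in WT (L). The part of these markers in the results above was not tested.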

How the data were processed

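RNA of 12 libraries was sequenced by the authors (polyA-selected, strand-marking kit, single reads), mapped to TAIR10 with STAR 2.5.3a, counted per gene with htseq-count 0.7.2 and fitted with DESeq2 1.19.37 in 2 fits of 8 libraries; the submitters' processing notes also name CASAVA 1.8. The 7 deposited tables hold the authors' comparisons only. The deposited signal is the mean normalized count over the 8 libraries of a fit, the deposited log2 fold changes and their standard errors are those of the authors' model, and the deposited p-values are two-sided Wald values; no value per library is used here, so the depth of single libraries is unknown and precision rests on the standard errors. A row of totals was left out of all tests.

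The Wald p was recomputed from each deposited log2 fold change and standard error and adjusted by the Benjamini-Hochberg method over all genes of the fit, and it gave the deposited call for every gene in all 7 tables. The deposited light comparisons have darkness on top and were turned round; the 4 tables of the first fit add up to within 9e-14. The interaction and *det1-1* (D) over WT (L) come from sums of deposited fold changes and variances, as does *det1-1ubp22-1* (L) over *det1-1* (L); for the last 2 the error is overstated because a group enters in both terms. Group means follow from the mean of the fit and the fold changes. The p-values rest on a dispersion per gene that the 8 libraries of a fit share, not on the spread of the compared groups alone. By the study's methods the 2 biological replicates of a group were grown independently. As in the study, a call needs more than a 2-fold difference with adjusted p below 0.01.

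The 34 genes, the other lists and the tests were chosen with earlier results of these data known. Genes given in full are the 2 copies of 9 pairs, genes not called in WT (L) over WT (D) or *det1-1* (D) over WT (D), genes called within light, and the 3 largest and smallest values of the first 2 comparisons; of other lists, the largest changes and the most abundant genes not called. Outside this rule, *RFNR1*, *RFNR2*, *RBCS2B*, the G-box genes and, in light or against WT (L), *PSAF*, *PSAL*, *PSBR*, *PSBO1*, *ATPG* and *PETC* were singled out after their values were seen. From the other lists, 5 identifiers that the reference did not pair with the symbol were dropped. *ATPG* and *PETM*, among the 34, were not paired with their symbols either and were kept by gene identifier. Promoters are the 250 bases before each RefSeq gene start in TAIR10.1, searched on both strands. Alternatives were a false discovery rate of 0.05, no fold threshold, a minimum mean count of 10, testing for a change beyond 2-fold, recentring on the median, the t distribution (4 degrees of freedom), scaling to the total count, the second fit and modelled standard errors. Python 3.11.15, pandas 2.3.3, NumPy 2.4.6, SciPy 1.17.1, matplotlib 3.10.9 and Biopython were used, and the calculations were tested on simulated data.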

Additional observations from a re-analysis of the deposited data

Results flagged for a closer look

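The effect of *det1-1* in darkness differed from that in light, by the interaction in the Wald test, for 31 of the 34 genes, and every one of the 31 differences was above 0 in log2. Values are the log2 effect in darkness minus that in light. Tested for a change beyond 2-fold, 22 of the 31 kept the call. Those that lost it were *PSAD1*, *PSAE2*, *PSAH1*, *PSBP1*, *PSBQ1*, *PSBTN*, *ATPC1*, *ATPD* and *ATPG*. Among photosystem I genes the interaction was 1.27 for *PSAD1*, 2.14 for *PSAD2*, 1.92 for *PSAE1*, 1.29 for *PSAE2*, 2.47 for *PSAF*, 1.86 for *PSAG*, 1.075 for *PSAH1*, 2.103 for *PSAH2*, 2.72 for *PSAK*, 2.46 for *PSAL*, 3.88 for *PSAN* and 2.79 for *PSAO*. Among photosystem II genes it was 2.23 for *PSBO1*, 2.93 for *PSBO2*, 1.71 for *PSBP1*, 1.59 for *PSBQ1*, 2.40 for *PSBR*, 2.72 for *PSBW*, 2.52 for *PSBX*, 2.19 for *PSBY* and 1.54 for *PSBTN*. For the ATP synthase it was 1.80 for *ATPC1*, 1.52 for *ATPD* and 1.705 for *ATPG*. For cytochrome b6f it was 2.56 for *PETC* and 2.70 for *PETM*, and for plastocyanin 2.21 for *PETE1* and 2.19 for *PETE2*. It was 2.51 for *FNR1*, 2.77 for *FNR2* and 2.03 for *FD2*.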

How the results depend on the processing

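A false discovery rate of 0.05, a minimum mean count of 10, recentring on the median, the second fit and modelled standard errors, each run where it applied, changed no call of the 34 genes, and no called value reversed its sign under any setting. With a t distribution of 4 degrees of freedom, 32 of the 34 were called in WT (L) over WT (D) and 21 in *det1-1* (D) over WT (D), where 2110 and 635 of all genes were called higher. In the other comparisons this setting called 0 of the 34 and also 0 of all genes, so that the lost calls, in *det1-1* (L) over *det1-1* (D), *det1-1* (L) over WT (L), the interaction, *det1-1* (D) over WT (L) and *det1-1ubp22-1* (L) over WT (L), say nothing about these genes in particular. With no threshold on size, 24 genes were called in *det1-1* (L) over *det1-1* (D), 8 in *det1-1* (L) over WT (L) and 10 in *det1-1ubp22-1* (L) over WT (L). Tested for a change beyond 2-fold, 24 were called in *det1-1* (D) over WT (D) and 22 in the interaction. The same setting called 6 in *det1-1* (L) over *det1-1* (D), 5 in *det1-1* (D) over WT (L) and 0 in *det1-1ubp22-1* (L) over WT (L). Scaled to the total count, 30 were called in the interaction, 25 in *det1-1* (D) over WT (D) and 12 in *det1-1* (L) over *det1-1* (D). This scaling called 17 in *det1-1* (D) over WT (L), all lower, and 3 in *det1-1* (L) over WT (L). Over single genes, 747 of 894 values called in either setting kept their side of the threshold, 101 lost it and 46 gained it. No paired analysis was possible because the tables hold no value per library, and for the same reason no library could be left out.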
